A study of Mus musculus with 6 samples.

Results

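Entry into and exit from mitosis run on a small set of genes that are switched on late in the cell cycle, and 36 of them were followed here through the binding map of Eomes in natural killer (NK) cells. They comprised Cdk1 and 3 of its cyclins, the Aurora and Polo kinases with the chromosomal passenger complex, kinetochore and centromere proteins, the spindle checkpoint, spindle motors, cytokinesis factors, and condensin with other chromosome proteins. The genes were listed by name for their role in mitosis, with earlier results of these data known. Every peak whose deposited gene symbol was one of the 36 was taken. They are 36 of the 21887 protein-coding nuclear genes of the RefSeq table that served for comparison, in which the 36 are included.

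Eomes is a T-box transcription factor that NK cells need for their maturation and upkeep. Mitotic genes are repressed in resting cells and early in the cycle by the DREAM complex, and are activated late in the cycle by MuvB with B-Myb and FoxM1. These complexes act at promoters through the cell cycle homology region close to the start of transcription, usually together with CCAAT boxes bound by NF-Y. IL-15 keeps NK cells alive and drives their division in culture.

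The data were chromatin immunoprecipitation libraries made with an antibody to Eomes, and the 3 separate experiments each gave an immunoprecipitated (IP) library and an input library. Splenic NK cells were taken from wild-type C57BL/6 mice, 8 to 12 weeks of age, whose splenocytes were pooled, and were expanded in IL-15 at 100 ng/mL over 4 days. All samples shared this genotype, strain and treatment, so there was no cell without Eomes and no untreated cell to compare with, and the input of the same experiment was the only control. No RNA was measured, so neither NK cell markers nor the level of the 36 transcripts could be checked. Each experiment gave 1 list of peaks over its own input, with 37456, 33841 and 46329 intervals in experiments 1, 2 and 3. Sequencing depth was not known. A peak carries a pileup, read here as the number of IP fragments at its summit, and a fold, the authors' ratio of IP to background. Pileups were low, with medians of 12, 11 and 14 fragments over the 3 lists and smallest values of 8, 7 and 9, and anything weaker escapes detection here. Overlapping intervals of the lists were joined into regions, and a region with peaks of at least 2 of the 3 experiments is called reproducible.

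The promoters of 5 of the genes are shown as examples. Cdk1, Nuf2 and Kif11 had the highest mean folds among the reproducible promoter regions of the 36 genes. Top2a and Ccnb2 are among the 11 genes without a reproducible region under their own name, and their promoters hold several of the letters marked. Top2a does not mark a low end of binding, since it had promoter peaks in experiment 3 with folds of 4.50 and 4.20. Ccnb2 had no promoter peak under its name, and its only peak was intronic, in experiment 3, with a fold of 3.90. Each line gives the 250 bases before the start of transcription, 5′ to 3′, from RefSeq on GRCm38.p6. The coordinates are chr10:69352913-69353162 (minus strand) for Cdk1, chr1:169531465-169531714 (minus strand) for Nuf2 and chr19:37376132-37376381 (plus strand) for Kif11, and chr11:99024190-99024439 (minus strand) for Top2a and chr9:70421555-70421804 (minus strand) for Ccnb2. Capitals mark CCAAT or its reverse complement ATTGG, and the cell cycle homology letters TTTGAA and TTCGAA or the reverse complement TTCAAA.
Cdk1: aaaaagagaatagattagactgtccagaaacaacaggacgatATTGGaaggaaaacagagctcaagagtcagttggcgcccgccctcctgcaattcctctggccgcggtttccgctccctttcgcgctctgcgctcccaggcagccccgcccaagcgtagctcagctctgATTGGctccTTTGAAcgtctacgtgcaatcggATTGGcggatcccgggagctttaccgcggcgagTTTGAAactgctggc
Nuf2: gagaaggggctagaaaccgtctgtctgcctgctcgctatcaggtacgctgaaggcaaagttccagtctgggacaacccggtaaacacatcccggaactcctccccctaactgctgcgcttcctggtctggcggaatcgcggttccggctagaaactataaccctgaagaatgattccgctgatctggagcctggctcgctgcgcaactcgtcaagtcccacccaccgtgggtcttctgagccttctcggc
Kif11: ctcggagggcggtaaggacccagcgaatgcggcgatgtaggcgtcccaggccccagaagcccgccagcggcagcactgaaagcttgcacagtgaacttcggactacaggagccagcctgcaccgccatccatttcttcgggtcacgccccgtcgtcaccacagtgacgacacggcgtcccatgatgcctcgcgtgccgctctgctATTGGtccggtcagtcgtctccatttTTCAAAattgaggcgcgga
Top2a: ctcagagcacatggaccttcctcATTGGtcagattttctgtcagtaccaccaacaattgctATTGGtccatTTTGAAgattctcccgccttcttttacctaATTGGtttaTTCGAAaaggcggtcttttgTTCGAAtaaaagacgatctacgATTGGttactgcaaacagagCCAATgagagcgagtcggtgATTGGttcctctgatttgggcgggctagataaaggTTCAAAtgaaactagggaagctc
Ccnb2: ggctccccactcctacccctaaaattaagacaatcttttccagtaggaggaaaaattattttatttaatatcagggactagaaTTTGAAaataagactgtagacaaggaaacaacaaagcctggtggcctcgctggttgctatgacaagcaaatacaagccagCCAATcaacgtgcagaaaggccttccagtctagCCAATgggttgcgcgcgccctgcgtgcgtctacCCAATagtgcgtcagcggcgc
Cdk1 shows CCAAT letters at 3 places and homology letters at 2 places, and its summits lay -120, -92 and -116 bases from the RefSeq start in experiments 1, 2 and 3. Kif11 has 1 of each, and its summits lay at -144, -166 and -119. Nuf2 has none of these letters in its window, and its summits lay at -49, -74 and -85.

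Peaks were common at the mitosis genes. In experiment 3, 34 of the 36 genes (94.4%) had a peak, against 60.1% of all genes. Experiment 1 had peaks at 25 genes (69.4%) against 54.1%, and experiment 2 at 23 genes (63.9%) against 54.0%. Over any of the 3 experiments, 35 genes (97.2%) had a peak, against 71.2% of all genes, and only the condensin subunit gene Ncapd2 had none under its own name. A peak in each of the 3 experiments was found for 18 of the 36 genes, against 40.1% of all genes. A reproducible region was found for 25 genes (69.4%), against 43.6% of all genes, and a reproducible promoter region for 24 genes (66.7%), against 37.2%. A promoter region present in all 3 lists was found for 14 genes (38.9%), against 24.2%. Outside promoters a reproducible region was found for 4 genes (11.1%), against 15.1% of all genes, a share near the background. These are counts beside a background, with no test, since the genes were chosen with earlier results of these data known.

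**Figure D1:**
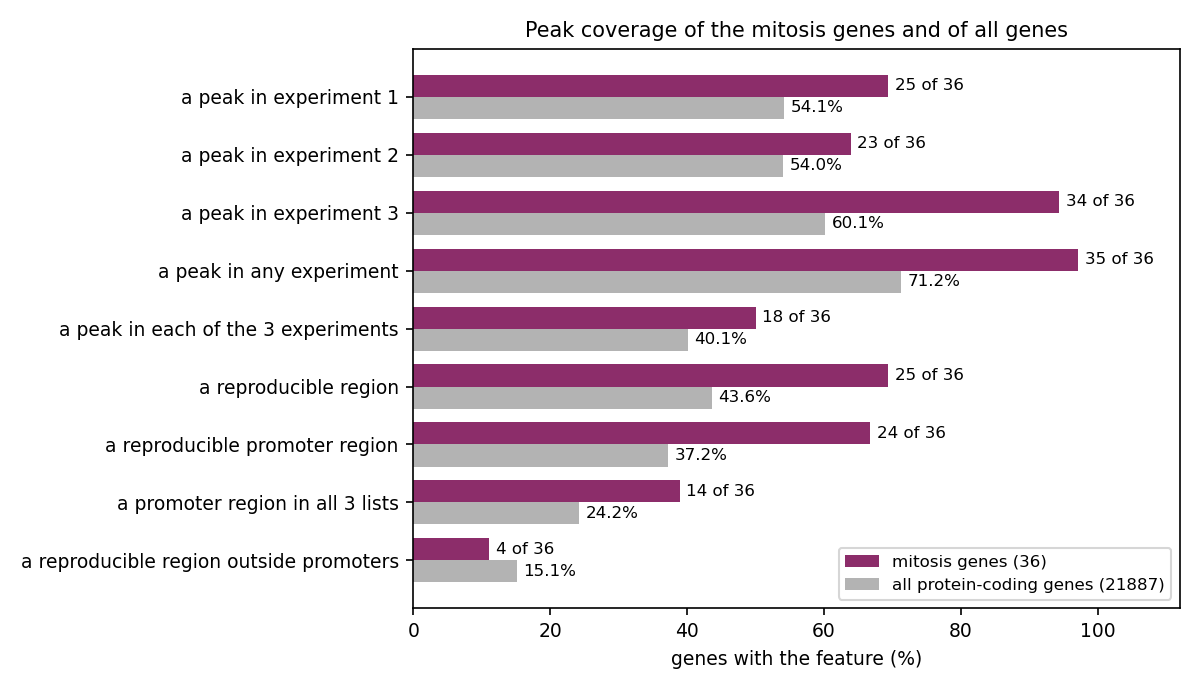
Share of genes (x axis, percent) with each kind of peak (y axis) for the 36 mitosis genes (purple) and all 21887 protein-coding genes (grey). The purple bar is the longer one in each row except the last, where 4 of 36 mitosis genes stand against 15.1% of all genes for reproducible regions outside promoters.

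The sites themselves were mostly at starts of transcription. The 36 genes drew 143 intervals, which formed 91 regions, of which 32 were reproducible. Of the 32, 27 (84.4%) were promoter regions, against 59.1% of all reproducible regions, 3 were distal intergenic and 2 intronic. All 27 promoter regions lay within 1000 bp of an annotated start, against 86.2% of all reproducible promoter regions. Of the 44 promoter regions of these genes seen in any list, 61.4% were reproducible, against 38.1% of all promoter regions. Of their 47 other regions, 10.6% were reproducible, against 15.5% of all such regions. The 59 regions seen in 1 list came unevenly from the experiments, with 16 in experiment 1, 11 in experiment 2 and 32 in experiment 3.

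Enrichment at the leading promoters was lower in rank than at other covered promoters and close to them in fold. The leading promoter region of a gene is the reproducible promoter region with the best mean rank in the lists, and its mean fold had a median of 4.80 over 24 mitosis genes, against 5.11 over the 8134 covered genes. The range among the 24 was 3.19 to 8.70, and none reached a fold of 10, a level that 4.67% of covered genes reached. The mean pileup had a median of 16.0 fragments in the mitosis genes and 16.7 fragments in all covered genes. The mean rank, as the share of a list that scores at least as high, had a median of 42.0% in the mitosis genes and 30.7% in all covered genes. A mean rank within the top 10% of the lists was held by 2 of the 24 (8.33%), against 14.9% of covered genes. Over all promoter intervals, reproducible or not, the median fold at the mitosis genes was 3.90, 4.84 and 4.41 in experiments 1, 2 and 3, against 4.23, 4.74 and 4.20 for all promoter intervals, so it was lower in experiment 1 and higher in the other experiments.

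**Figure D2:**
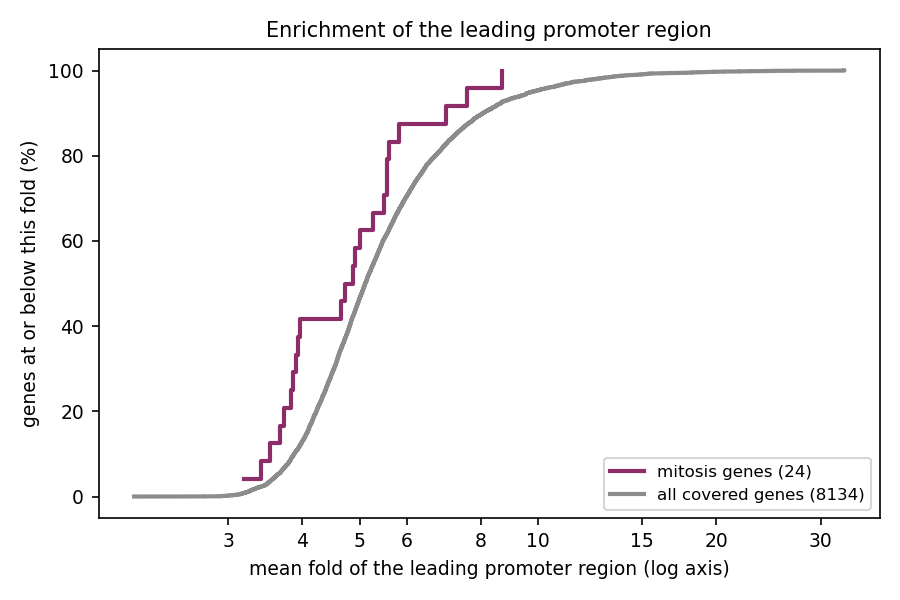
Cumulative share of genes (y axis, percent) by the mean fold of the leading promoter region (x axis, log scale), for 24 mitosis genes (purple) and 8134 covered genes (grey). The purple curve ends at 8.70, while the grey one has 4.67% of its genes at 10 or more, and the medians are 4.80 and 5.11.

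Among the cyclins and Cdk1, 3 of 4 genes had a promoter region in all 3 lists, against 24.2% of all genes. Cdk1, the kinase that drives entry into mitosis, had the highest mean fold among the reproducible regions of the 36 genes, with folds of 4.81, 13.7 and 7.63 and pileups of 18, 32 and 40 fragments in experiments 1, 2 and 3 (8.70 ± 4.52, SD, n = 3). The value of experiment 2 stands far above the other two, and the region lay at chr10:69352699-69353174 on mm10. A second Cdk1 promoter region, with its summit 535 bp inside the transcript, had folds of 4.04, 3.38 and 5.88 (4.43 ± 1.29, SD, n = 3). Ccna2, the S-phase and G2 cyclin, had folds of 3.87, 7.45 and 5.40 (5.57 ± 1.80, SD, n = 3), again highest in experiment 2. Ccnb1, the main mitotic cyclin, had folds of 4.38, 4.31 and 3.03 and pileups of 12, 9 and 10 fragments (3.91 ± 0.761, SD, n = 3), lowest in fold in experiment 3. Ccnb2, a second B-type cyclin, had 1 peak in all, an intronic one in experiment 3 with a fold of 3.90 and a pileup of 12 fragments.

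Of the 6 genes of the Aurora and Polo kinases and the passenger complex, 4 had a reproducible promoter region, 3 of them in all 3 lists. The shares over all genes were 37.2% and 24.2%. Plk1, the Polo kinase of mitotic entry and exit, had folds of 4.63, 6.18 and 5.01 (5.27 ± 0.809, SD, n = 3), and its 3 summits lay within 15 bp of each other, the narrowest spread among the 24 genes. Incenp, the scaffold of the passenger complex, had folds of 7.34, 4.20 and 5.28 (5.61 ± 1.59, SD, n = 3), highest in experiment 1. Birc5, which encodes survivin, had a pair of promoter regions in all 3 lists. Its leading region had folds of 2.87, 5.38 and 6.37 (4.88 ± 1.80, SD, n = 3), and the other, with its summit at -616 bp, had folds of 3.13, 3.97 and 7.05 (4.72 ± 2.06, SD, n = 3). Both Birc5 regions were lowest in experiment 1 and highest in experiment 3. A distal Birc5 peak at -5937 bp, seen in experiment 2 alone, had a fold of 9.04 and a pileup of 20 fragments. Cdca8, which encodes borealin, had folds of 3.54 in experiment 1 and 3.90 in experiment 3 and no promoter peak in experiment 2. Aurkb, the kinase of the complex, had no reproducible promoter region, and its promoter peak was seen in experiment 3 alone with a fold of 4.41. Its 1 reproducible region was distal, at -5131 bp from the start, with folds of 2.76 in experiment 1 and 5.24 in experiment 3, and the experiment 1 peak there carried the name of the neighbouring gene Ctc1. Aurka, the spindle pole kinase, had 1 promoter peak in each experiment under its own name, but the 3 did not overlap, with folds of 3.03, 3.45 and 3.60.

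All 5 kinetochore and centromere genes had a reproducible promoter region, against 37.2% of all genes. Nuf2, a subunit of the NDC80 complex that holds microtubules, had folds of 4.46, 10.4 and 7.84 and pileups of 21, 26 and 48 fragments (7.58 ± 2.99, SD, n = 3), at chr1:169531340-169531714. The pileup of 48 was the highest of any peak of the 36 genes. Cenpe, a kinetochore motor, had folds of 3.04, 4.31 and 4.22 (3.86 ± 0.708, SD, n = 3). Cenpf, a large kinetochore protein, had folds of 3.18, 3.44 and 3.59 (3.40 ± 0.206, SD, n = 3), and its 3 summits were 363 bp apart, so this region is a chain of overlapping intervals rather than 1 shared summit. A distal Cenpf peak 24758 bp from the nearest start, seen in experiment 2 alone, had a fold of 9.48 and a pileup of 21 fragments. Ndc80, the name-giving subunit beside Nuf2, had folds of 4.62 in experiment 2 and 2.72 in experiment 3, with summits 326 bp apart. Cenpa, the centromeric histone H3 variant, had folds of 6.03 in experiment 2 and 3.41 in experiment 3, and neither gene had a promoter peak in experiment 1.

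Of the 5 spindle checkpoint genes, 4 had a reproducible promoter region and 1 had it in all 3 lists, against 37.2% and 24.2% of all genes. Mad2l1, which encodes the checkpoint protein MAD2, had folds of 4.05, 4.04 and 6.63 (4.90 ± 1.49, SD, n = 3), highest in experiment 3. Cdc20, the activator of the anaphase-promoting complex that the checkpoint holds back, had folds of 3.70 in experiment 2 and 4.22 in experiment 3. Ttk, the checkpoint kinase MPS1, had the lowest leading fold of the 24 genes, with 3.55 in experiment 1 and 2.83 in experiment 3. Bub1b, which encodes BUBR1, was the only member with 3 reproducible regions, and its promoter region was the weakest of them, with folds of 4.84 in experiment 2 and 3.04 in experiment 3. Its distal region, 10942 bp from the nearest annotated start, had folds of 8.96 in experiment 1 and 6.21 in experiment 3 and pileups of 30 and 32 fragments. Its intronic region had folds of 4.95 in experiment 2 and 6.83 in experiment 3. No region of Bub1b was in all 3 lists. Bub1, the partner kinase, had peaks in all 3 experiments at different places, with a promoter peak in experiment 2 (fold 5.36), a second one at -2510 bp in experiment 1 (fold 3.80) and a downstream one in experiment 3 (fold 3.90).

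Among the 3 spindle motor and assembly genes, Kif11, the plus-end motor that separates spindle poles, had folds of 4.28, 8.50 and 8.22 and pileups of 18, 21 and 36 fragments (7.0 ± 2.4, SD, n = 3), at chr19:37375802-37376548. Experiment 1 was the low one here, as it was at Cdk1 and Nuf2. Kif2c, a microtubule depolymerase of the centromere, had folds of 4.84 in experiment 1 and 4.45 in experiment 3. Tpx2, which activates Aurora A on the spindle, had a single peak, in an exon in experiment 3, with a fold of 3.31 and a pileup of 11 fragments.

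Of the 6 midzone and cytokinesis genes, 2 had a reproducible promoter region under their own name, beside the 37.2% of all genes. Racgap1, the GTPase-activating subunit of centralspindlin, had folds of 3.07, 6.30 and 8.11 (5.83 ± 2.55, SD, n = 3), with the summit of experiment 1 up to 306 bp from those of the other experiments. Its intronic region at -4010 bp from the nearest start was the only region outside a promoter that all 3 lists held, with folds of 3.29, 4.31 and 3.65 (3.75 ± 0.516, SD, n = 3). Kif23, the motor subunit of centralspindlin, had 2 promoter regions in 2 lists each. The leading one, with its summit at -129 bp, had folds of 3.65 in experiment 1 and 7.32 in experiment 2, and the one 364 bp inside the gene had 5.17 in experiment 2 and 3.30 in experiment 3. Prc1, which bundles midzone microtubules, had a promoter peak in experiment 3 alone (fold 2.98, 15 fragments), and Kif20a, a midzone motor, had an exonic peak in experiment 2 alone (fold 3.84, 9 fragments). Anln, which encodes anillin, had a promoter peak in experiment 3 with a fold of 4.79 and intronic peaks in experiments 1 and 3 that did not overlap. Ect2, the RhoA exchange factor of the cleavage furrow, had promoter peaks under its name in experiment 1 (fold 4.05) and in experiment 3 (fold 2.67) that did not overlap either.

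Of the 7 condensin and chromosome genes, 4 had a reproducible promoter region, against 37.2% of all genes. Smc4, a core condensin ATPase, had folds of 3.73, 3.28 and 4.47 (3.82 ± 0.599, SD, n = 3), with summits up to 340 bp apart. Its value of experiment 1 belongs to a separate summit. The experiment 1 peak beside the summits of experiments 2 and 3 had a fold of 2.63. Mki67, which encodes the proliferation marker Ki-67 that coats mitotic chromosomes, had folds of 3.93, 3.46 and 3.20 (3.53 ± 0.369, SD, n = 3). The Mki67 region lay the farthest from its start among the 24 genes, 356 bp inside the transcript, and its summits in the 3 lists were up to 319 bp apart. A distal Mki67 region at -19369 bp had folds of 4.23 in experiment 2 and 5.09 in experiment 3, above those of its promoter in the same experiments. Ncapg, a condensin I subunit, had folds of 4.97 in experiment 1 and 6.13 in experiment 3, and Ncaph, the kleisin of condensin I, had 5.60 in experiment 2 and 4.41 in experiment 3. Top2a, the topoisomerase that untangles sister chromatids, had a pair of promoter peaks in experiment 3 alone, with folds of 4.50 and 4.20 and pileups of 14 and 13 fragments on either side of the start. Smc2, the partner of Smc4, had a promoter peak under its name in experiment 3 alone (fold 4.24, 15 fragments).

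**Figure D3:**
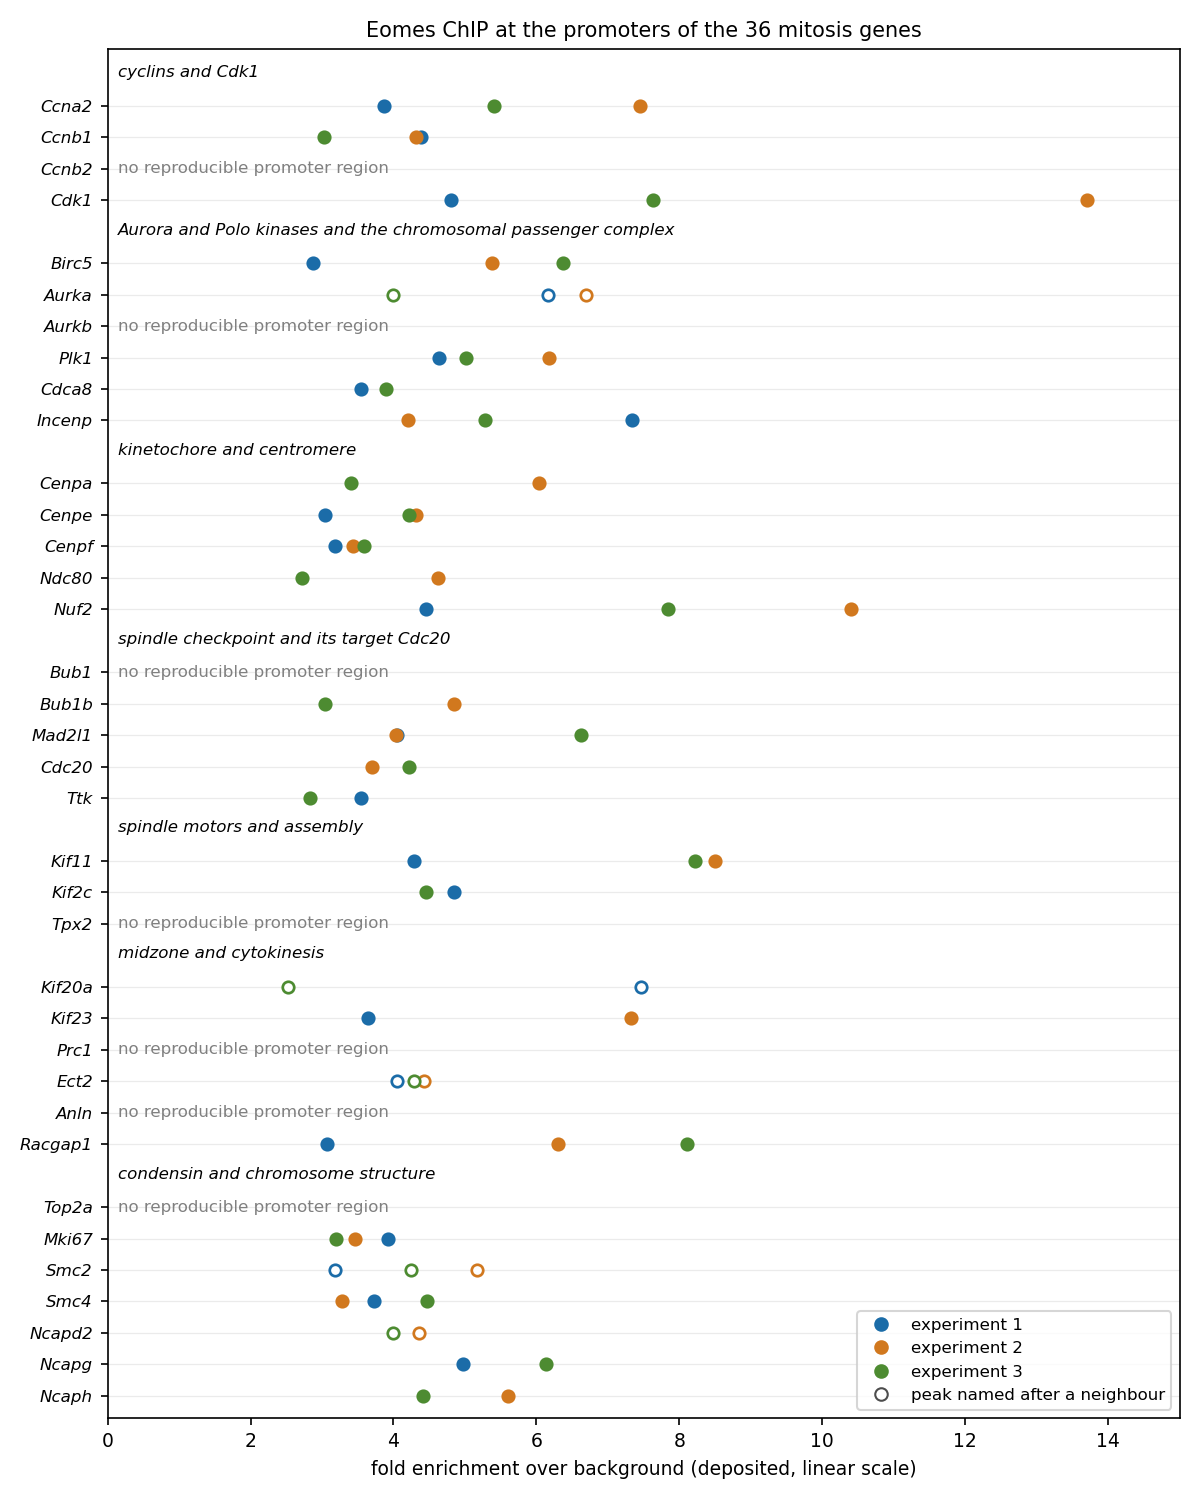
Deposited fold of IP over background (x axis, linear) in experiments 1 (blue), 2 (orange) and 3 (green) at the leading promoter region of each of the 36 genes (rows, by role); open circles are regions at the gene's start that the files name after a neighbour. Cdk1 reaches 13.7 and Nuf2 10.4 in experiment 2, all other filled circles lie below 9, and 7 genes have no reproducible promoter region of either kind.

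The order of the 14 genes whose leading region was in all 3 lists was partly kept between experiments. Across these 14 genes, Spearman's rho of the folds was 0.70 between experiments 2 and 3, 0.31 between experiments 1 and 2 and 0.13 between experiments 1 and 3. Over the 5059 covered genes of that kind it was 0.50, 0.44 and 0.46 for the same pairs. The genes share their libraries, and the values are descriptions of these lists. The median fold of the 14 was 3.99, 4.85 and 5.34 in experiments 1, 2 and 3, against 4.97, 5.88 and 6.05 for all such genes, so it was lower in the mitosis genes in each experiment.

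At several genes the region at the start carried the name of a neighbour. The deposited annotation gives a peak to the gene with the nearest start, and 7 of the 36 genes have the start of another gene on the opposite strand within 1000 bp. At Aurka, whose start lies 75 bp from that of Cstf1, a region in all 3 lists was named Cstf1, with folds of 6.16, 6.69 and 4.00. At Ect2 a region in all 3 lists was named after 1700125G22Rik by its best-ranked peak, with folds of 4.05, 4.43 and 4.28. At Smc2 one was named after Smc2os in the same way, with folds of 3.18, 5.17 and 4.24. The peaks of these regions carry mixed names. The value of 4.05 in experiment 1 is the Ect2 peak given above, and 4.24 in experiment 3 is the Smc2 peak given above. At Ncapd2, the only gene without a peak of its own name, a region named Mrpl51 had folds of 4.35 in experiment 2 and 4.00 in experiment 3. At Kif20a a region named Brd8 had folds of 7.46 in experiment 1 and 2.53 in experiment 3. Smc4, which has its own region, shares its upstream side with Ift80, whose region had folds of 4.63, 7.04 and 3.30. Taken by position, within 3000 bp of a RefSeq start, 29 of the 36 genes (80.6%) had a reproducible region at the start, against 43.8% of the 20648 genes that could be placed. Ccnb2, Top2a, Aurkb, Bub1, Tpx2, Prc1 and Anln were the 7 without one.

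Summits clustered close to the start of the transcript that the deposited annotation names. That start can differ from the RefSeq start used for the sequence windows. The mean summit of Mad2l1 lay at -13 bp from the annotated start, and its summits at 132, 191 and 146 bp from the RefSeq start. For Kif2c these values were 69 bp, and -3860 and -3736 bp. The mean summit of the leading region lay within 250 bp of the start at 22 of 24 mitosis genes (91.7%), against 70.8% of covered genes, and within 100 bp at 15 (62.5%), against 45.8%. It lay before the start at 15 of 24 (62.5%), against 51.7% of covered genes. The median position was -69.2 bp in the mitosis genes and -6.50 bp in all covered genes. Summits of the same region differed between lists by a median of 85.5 bp, against 70.0 bp in all covered genes.

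**Figure D4:**
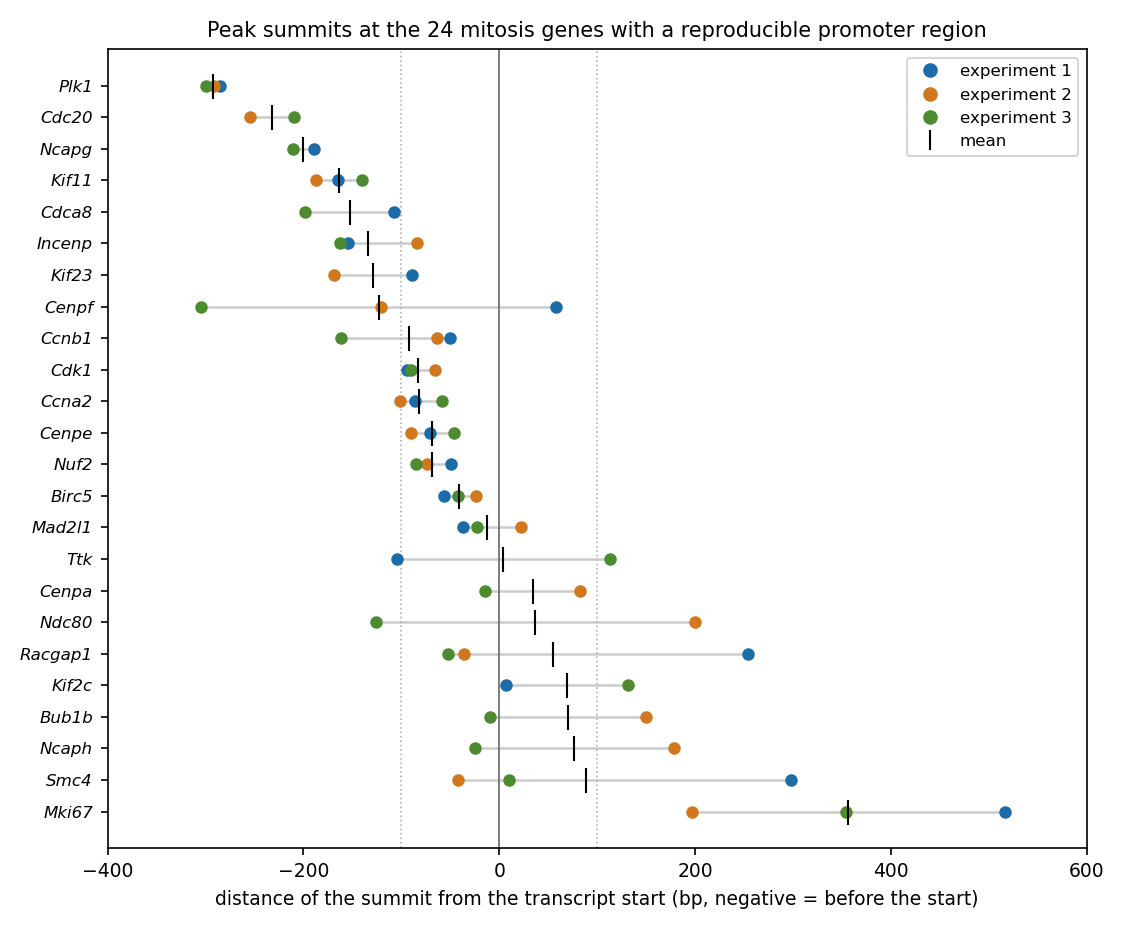
Position of each summit relative to the transcript start of the deposited annotation (x axis, bp, negative before the start) in experiments 1 (blue), 2 (orange) and 3 (green). Rows are the 24 genes, with the mean as a black bar and dotted lines at 100 bp. The means run from -292 bp at Plk1 to 356 bp at Mki67, and 15 of 24 lie before the start.

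Cell cycle letters were frequent in these promoters, at genes with and without a reproducible peak. RefSeq windows of 300 bases, 250 before and 50 after the start, were given for 30 of the 36 genes (32 windows), and not for Ccna2, Aurkb, Kif20a, Tpx2, Incenp and Smc4. Letters were searched on both strands. CCAAT was in 25 of 32 windows (78.1%), against 38.2% of the 21263 windows of all protein-coding genes, and the cell cycle homology letters TTTGAA or TTCGAA were in 26 (81.2%), against 17.6%. Both were in 23 windows (71.9%), against 7.11%. A homology match with its middle within 50 bases of the start was in 23 windows (71.9%), against 4.49%. At least 2 CCAAT matches were in 15 windows (46.9%), against 12.6%. The median GC content was 59.0% in these windows and 56.3% in all windows.

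T-box letters were not more common in these windows. The short T-box letters GTGTGA, the reverse complement of TCACAC, were in 3 of 32 windows (9.38%), against 13.2% of all windows, and the 3 belonged to Aurka, Cenpf and Kif2c. The longer TCACACC, which contains the short one, was in 1 window (3.12%), against 3.68%, and that was Kif2c. The windows do not always lie under the peaks. Of the 21 windows of genes with a reproducible promoter region, 18 overlapped the leading region and 8 held all of its summits. The windows of Kif2c, Cdca8 and Mki67 did not overlap it, and the Kif2c window belongs to a start inside the gene, with summits at -3860 and -3736 bp. Those of Plk1 and Mad2l1 overlapped it but held no summit. The E2F letters GCGGGAA were in 1 window (3.12%), that of Ncapg, against 5.95%. A match is a description of letters and not a binding site, and its absence says only that these letters are not in the window.

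Windows of genes with and without a reproducible promoter region under their own name can be set side by side. CCAAT was in 71.4% of the 21 windows of genes with such a region and in 90.9% of the 11 windows of genes without. The 11 windows belong to 9 genes, with Prc1 and Ect2 giving 2 each, and Aurka, Ect2, Smc2 and Ncapd2 among them have a region at the start that is named after a neighbour. The homology letters were in 71.4% and 100% of the same windows, and the short T-box letters in 9.52% and 9.09%. Top2a, with 6 CCAAT and 4 homology matches, and Ccnb2, with 3 and 2, were without a reproducible region. Nuf2, Mad2l1, Birc5 and Ncaph, with no match of either kind, each had one. Other genes went the other way. Cdk1, with 3 CCAAT and 2 homology matches, had a reproducible region, and Anln, with no CCAAT and 2 homology matches, had none. A relation between letters and regions was not tested. Over all protein-coding genes, the short T-box letters were in 10.9% of windows of genes with a reproducible promoter region and in 14.8% of windows of genes without. The median GC content of these windows was 61.7% and 52.0%, and its part in the difference was not tested.

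**Figure D5:**
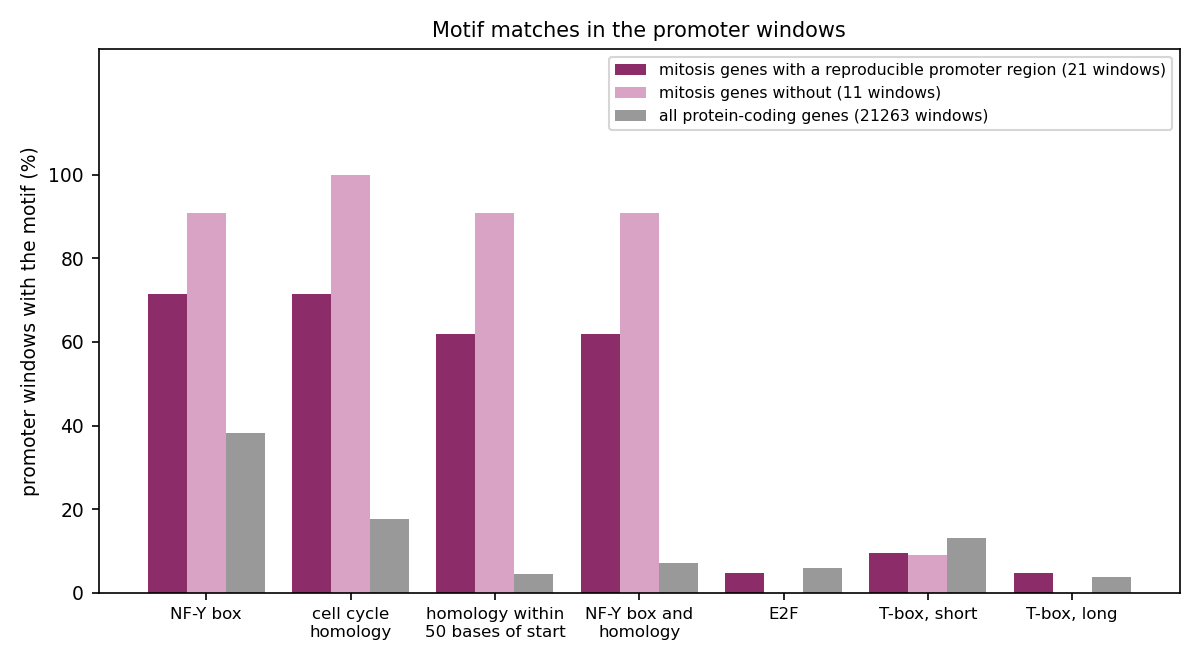
Share of promoter windows (y axis, percent) with each motif (x axis) for mitosis genes with a reproducible promoter region (dark purple), mitosis genes without one under their own name (light purple, 9 genes in 11 windows, among them Aurka, Ect2, Smc2 and Ncapd2 with a region named after a neighbour) and all protein-coding genes (grey). Both purple bars stand above the grey one for the NF-Y box and the cell cycle homology letters, while those for the short T-box letters, 9.52% and 9.09%, stand below the grey 13.2%.

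The local background was raised at many of these promoters. Many peaks of a list share its lowest background value, which was 1.82, 1.32 and 2.33 fragments in experiments 1, 2 and 3. Of the promoter intervals of the mitosis genes, 25 of 26 (96.2%) in experiment 1, 20 of 27 (74.1%) in experiment 2 and 30 of 38 (78.9%) in experiment 3 lay above it. The shares over all promoter intervals were 76.7%, 59.5% and 67.4%. The part of this background in the peak calls was not tested.

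Other genes of the same processes were covered to differing extents, given here as counts with no test. The share of a list with a reproducible promoter region ran from 51.4% to 95.7%. It was 66.7% in the mitosis genes and 37.2% in all genes. Of 23 regulators of late cell cycle transcription, the genes of the DREAM, MuvB, E2F, FoxM1 and NF-Y machinery, 22 had a reproducible promoter region, all but Lin9, and the highest leading folds were 9.34 ± 3.65 at E2f2 and 8.72 ± 3.76 at Nfyb (SD, n = 3 each). Of 47 DNA replication genes, 34 had one, led by the polymerase subunit gene Pold3 at 12.6 ± 3.74 and the helicase subunit gene Mcm7 at 10.4 ± 3.06 (SD, n = 3 each). Their 47 windows differed from those of the mitosis genes in letters, with E2F letters in 38.3% and homology letters in 21.3%. Of 16 cohesin and other condensin genes 12 had a reproducible promoter region, of 24 other spindle and cytokinesis genes 16, and of 19 other mitotic kinase and phosphatase genes 13. Of 20 genes of the anaphase-promoting complex and its partners it was 11, and of 35 other kinetochore, centromere and checkpoint genes 18. Cenpu, a centromere protein gene of the last list, had promoter folds of 10.1, 14.3 and 17.4 (13.9 ± 3.66, SD, n = 3), above the mean fold of every one of the 36 genes.

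The counts lean on experiment 3, which had the longest list. Without it, 15 of the 36 genes (41.7%) had a reproducible region in both remaining lists, against 30.4% of all genes, where 20 (55.6%) did without experiment 1, against 36.6%, and 20 without experiment 2, against 35.3%. Without experiment 3, the 11 genes that lost their region were Aurkb, Bub1b, Cdc20, Cdca8, Cenpa, Kif2c, Mki67, Ncapg, Ncaph, Ndc80 and Ttk, and Ect2 gained one.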

How the data were processed

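Peaks were called per experiment on 1 IP library over the input of the same experiment, per the labels. The submitters' processing notes name Novoalign, ChIPseeker and the build mm10. Not given in the sources used here is the peak caller. The deposited columns were the pileup, a signal in fragments, the authors' fold enrichment, a ratio of IP to background, and the authors' −log10 p-value and −log10 q-value. They were used to describe and rank peaks within a list, and a mean ± SD over lists describes a region.

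Sub-peaks of an interval were collapsed to the one with the highest −log10 q-value. Intervals sharing at least 1 bp were joined, and bedtools 2.31.1 gave the same 84399 regions and 20126 reproducible regions. A region took the class and gene of its best-ranked peak, matched by symbol or unique synonym to 21887 RefSeq genes of GRCm38.p6. Background was (pileup + 1) / fold − 1, and a Poisson tail at it met the deposited −log10 p-value to within 0.000336. Offsets run from the start of the transcript that the files name.

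The members and lists were chosen with earlier results of these data known, so no test was run. All 36 genes are accounted for. Full values are given for genes with a leading region in all 3 lists, the 5 highest and 5 lowest leading folds, reproducible regions outside promoters and genes with a peak in 1 experiment. Other genes are named where they carry a peak at a member or lead their list. Replicates are the separate experiments that the labels give, and alternatives are given in the closing section.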

Additional observations from a re-analysis of the deposited data

How the results depend on the processing

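The count of mitosis genes with a reproducible region (25) and with a reproducible promoter region (24), and the number of reproducible regions (32), moved by less than 1.5 times under a stricter overlap of 0.5 of the shorter interval and with summits widened by 100 bp. So did the 2 gene counts under assignment by position, which was not run for the number of regions, and the promoter count with a reach of 1000 bp. At a −log10 q-value of at least 3 they were 16 genes, against 35.5% of all genes, 15 genes, against 29.8%, and 20 regions. With peaks of all 3 experiments required they were 14 genes, against 28.8% of all genes, 14 genes, against 24.2%, and 17 regions. Leaving out each experiment in turn gave 15 to 20 genes with a region and 15 to 20 genes with a promoter region. The shares over all genes were 30.4% to 36.6% and 25.1% to 31.3%. The number of regions was 17 to 25, and all these counts were lowest without experiment 3. Genes with a peak in any experiment (35) numbered 30 to 35 when 1 experiment was left out, against 64.9% to 67.5% of all genes. In experiments 1, 2 and 3 alone they numbered 25, 23 and 34, against 54.1%, 54.0% and 60.1%, an alternative chosen after seeing the data. Letting any peak of a region name the gene was also chosen after seeing the data. It gave 27 genes, against 44.8% of all genes, and 26 genes with a promoter region, against 38.5%. The median leading fold (4.80) ranged from 4.64 to 4.73 with 1 experiment left out, and was 5.09 over regions of all 3 lists and 4.72 when regions were led by pileup. The causes of these shifts were not tested. No paired analysis was possible because the lists give peaks of each IP over its own input, with no values per input library. Small pileups limit what can be detected, and sequencing depth is not known.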
